A study of Mus musculus with 2 samples.

Results

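The genes described here encode the proteins of the cytosolic ribosome, together with the pseudogenes named after them, in mouse lens. They were taken by symbol as Rpsa and every gene whose name starts with Rpl, Rps or Rplp and a digit, without the S6 kinases and the Rps19-binding proteins. That gave 203 of the 21673 genes in the deposited table. Of these, 88 are listed as genes and 115 have names ending in -ps, the class of named pseudogenes. The 88 comprise 77 main ribosomal protein genes and 11 paralogs or retrogenes such as Rpl22l1 and Rps4l.

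Messenger RNA was sequenced from lenses of C57BL/6 mice at postnatal day 60, with 1 library from Msx2 CKO mice and 1 from Msx2 WT mice. In the Msx2 CKO mice, floxed alleles of the homeobox gene Msx2 are combined with Le-Cre, a transgene active in lens and in other tissues that arise from the surface ectoderm of the eye. The Msx2 WT mice have the floxed alleles without Cre, so Cre and the loss of Msx2 cannot be told apart. The number of animals behind a library, and whether they were pooled, are points not given in the sources used here. As neither genotype was replicated, there is no replicate error and no test, and each difference is one between these 2 libraries.

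Ribosomal proteins assemble with ribosomal RNA into a large subunit, which joins amino acids, and a small subunit, which reads the messenger RNA. Their genes are among the most strongly expressed in growing cells. The mammalian genome also holds very many processed pseudogenes of them, intronless copies made from spliced messenger RNA, and many differ from the parent's coding sequence at only a few bases. A short sequencing read from such a stretch can match parent and copy equally well. In lens, fibre cells make very large amounts of crystallins and later lose their organelles, while the epithelium keeps its nuclei.

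Levels are the deposited FPKM, that is fragments counted on a gene per kilobase of its length and scaled to a library size. The library size that the values imply was above the total of reads in Msx2 CKO and below it in Msx2 WT. Genes with an average of at least 1 FPKM across the pair of libraries are called measured. The log2 ratio is Msx2 CKO over Msx2 WT after adding 1 to each FPKM, and a gene past 2-fold on that scale in either direction is called higher or lower in Msx2 CKO. Folds are given without that addition, with exact 95% intervals from the reads recovered from the FPKM values. These intervals cover counting error only.

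The libraries held 17165504 reads in Msx2 CKO and 20784737 reads in Msx2 WT. Msx2 itself was at 0.0392 FPKM (3 reads) in Msx2 CKO and 6.21 FPKM (311 reads) in Msx2 WT, 159-fold lower (53.8 to 774). Crystallins took 40.1% of reads in Msx2 CKO and 61.6% in Msx2 WT. All 12 photoreceptor markers were higher in Msx2 CKO, summing to 0.449% of its reads against 0.00631% in Msx2 WT, as were all 6 measured leukocyte markers (0.00835% of reads in Msx2 CKO and 0.000852% in Msx2 WT). Of 10 lens fibre markers, 8 were lower in Msx2 CKO, and 1 of 6 lens epithelium markers was higher and 2 lower. Markers of inner retina and glia (7 of 9 measured higher) and of cornea (1 of 1 measured higher) also differed, and the 5 erythroid genes had 58 reads in Msx2 CKO and 8 in Msx2 WT, none of them measured. The part of these other cells in the results was not tested, and in bulk tissue fewer cells of a type and less RNA per cell cannot be told apart. Xist, expressed from an inactive X chromosome, had 16251 reads in Msx2 CKO and 35 in Msx2 WT. The Y-linked Eif2s3y had 0 reads in Msx2 CKO and 819 in Msx2 WT. With 1 library per genotype, a difference in the sex of the animals cannot be told apart from one in genotype.

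Ribosomal protein genes lay close together and slightly lower in Msx2 CKO, and 2 of them stood far outside. Of the 88 genes, 86 were measured. Rpl34 was the 1 gene called higher and Rpl29 the 1 called lower, while 84 lay within 2-fold. Among all 10757 measured genes 8.76% were called, 5.83% higher and 2.93% lower. The median log2 ratio of the ribosomal protein genes was -0.18, with quartiles at -0.40 and -0.03, beside a median of -0.02 over all measured genes. Of the 86, 68 had ratios below 0 and 18 above. The direction of that median depends on scaling: with library totals it was 0.69, beside 0.69 for all measured genes, and with totals that leave out crystallins it was 0.06, beside 0.21. These medians include the added 1 FPKM, which understates the change of genes at low levels. On plain ratios the deposited values gave -0.18 beside -0.02, a gap that scaling leaves unchanged for the same genes.

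Of the 115 named pseudogenes 48 were measured. With the deposited scaling 4 of the 48 were called, beside 8.76% of all measured genes. Rpl34-ps1, Rpl3-ps1, Rps13-ps6 and Rpl39-ps were called lower in Msx2 CKO with 0 called higher. That balance depends on the settings: 9 were higher and 2 lower under library totals, 3 higher and 3 lower under totals without crystallins, and 3 higher and 5 lower with a pseudocount of 0.1. Rpl34 and its pseudogene Rpl34-ps1 differed in opposite directions, and their sum was 1.09-fold higher. Rpl29 was the 1 parent past 2-fold after pseudogene reads were added. The sequences that separate these genes from their copies come first. How reads that match both were assigned was not tested.

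Rpl34 and Rpl34-ps1 have coding sequences that are 99.4% identical, with 2 substitutions, T132C and C318G (parent base, position counted from 1 at the A of the start codon, copy base). The stretches around them are printed 5′ to 3′ from the GENCODE M21 transcripts (GRCm38). Capitals mark bases that differ between Rpl34 and a listed copy. In the second pair the further capital, at position 333, is where the copy Gm4705 has A333G.
Rpl34, coding bases 112 to 152: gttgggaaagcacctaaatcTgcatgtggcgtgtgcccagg
Rpl34-ps1, coding bases 112 to 152: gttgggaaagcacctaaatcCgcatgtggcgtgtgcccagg
Rpl34, coding bases 298 to 338: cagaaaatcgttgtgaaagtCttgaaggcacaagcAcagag
Rpl34-ps1, coding bases 298 to 338: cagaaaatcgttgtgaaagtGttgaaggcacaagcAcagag

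Rpl3 and Rpl3-ps1 are 99.8% identical over the coding sequence, with the substitutions C57A and T786C.
Rpl3, coding bases 37 to 77: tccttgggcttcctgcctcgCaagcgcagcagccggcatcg
Rpl3-ps1, coding bases 37 to 77: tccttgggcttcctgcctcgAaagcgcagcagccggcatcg
Rpl3, coding bases 766 to 806: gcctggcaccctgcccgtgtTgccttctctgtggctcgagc
Rpl3-ps1, coding bases 766 to 806: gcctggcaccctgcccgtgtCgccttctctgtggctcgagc

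Rpl29 and Rpl30 have copies that carry no pseudogene name. Gm8210 and Gm13841 each differ from Rpl29 by C72A, C300T and T423C, while Gm14036, Gm10709 and Gm5561 do not carry C72A. Gm12191 differs from Rpl30 by G96A alone (99.7% identity). The stretches around C72A and G96A follow the name of each gene, with capitals at bases that differ between parent and a listed copy.
Rpl29, coding bases 52 to 92: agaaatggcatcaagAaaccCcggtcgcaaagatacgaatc
Gm8210, coding bases 52 to 92: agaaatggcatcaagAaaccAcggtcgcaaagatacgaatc
Gm13841, coding bases 52 to 92: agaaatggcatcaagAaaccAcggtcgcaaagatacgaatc
Gm5561, coding bases 52 to 92: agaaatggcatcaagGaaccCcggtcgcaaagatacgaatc
Rpl30, coding bases 76 to 116: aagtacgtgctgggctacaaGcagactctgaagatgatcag
Gm12191, coding bases 76 to 116: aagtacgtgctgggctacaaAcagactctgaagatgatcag

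Rpl34, which encodes a large-subunit protein, lies on chromosome 3 (130726831 to 130730398, minus strand, GRCm38), where no other gene overlaps it. It was at 90.7 FPKM (5599 reads) in Msx2 CKO and 34.4 FPKM (1388 reads) in Msx2 WT. The level was 2.64-fold higher in Msx2 CKO (2.48 to 2.80), the highest ratio of any ribosomal protein gene, with a log2 ratio of 1.37. Rpl34-ps1 lies on the plus strand of chromosome 6 from 71124610 to 71124963, in no other gene. It was at 9.67 FPKM (80 reads) in Msx2 CKO and 372 FPKM (2008 reads) in Msx2 WT. That is 38.4-fold lower in Msx2 CKO (30.7 to 48.7), a log2 ratio of -5.13. In Msx2 WT the pseudogene thus had more reads than its parent, and in Msx2 CKO far fewer.

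Rpl34 with Rpl34-ps1 had 5679 reads in Msx2 CKO and 3396 in Msx2 WT, a log2 ratio of 0.13 and a fold of 1.09 (1.05 to 1.14). The pseudogene held 1.41% of those reads in Msx2 CKO and 59.1% in Msx2 WT. Scaled to RPM on the library size that the FPKM values imply, Rpl34 and all 3 of its listed copies came to 243.8 RPM in Msx2 CKO and 225.0 RPM in Msx2 WT. T132C and C318G occur in all 3 copies, which are Rpl34-ps1, Gm10154 (7 reads in Msx2 CKO and 26 in Msx2 WT) and Gm4705 (11 reads in Msx2 CKO and 13 in Msx2 WT).

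Rpl3, a large-subunit protein placed near the site where peptide bonds form, was at 189 FPKM (13790 reads) in Msx2 CKO and 111 FPKM (5306 reads) in Msx2 WT. The gene lies on chromosome 15 (80077794 to 80091868, minus strand), where it overlaps exons of other genes, among them Syngr1 on the opposite strand at 7.38 FPKM in Msx2 CKO and 2.45 in Msx2 WT. Its level was 1.70-fold higher in Msx2 CKO (1.64 to 1.75), a log2 ratio of 0.76 within 2-fold. Rpl3-ps1, on the plus strand of chromosome X from 13202571 to 13203780, was at 12.7 FPKM (360 reads) in Msx2 CKO and 72.3 FPKM (1336 reads) in Msx2 WT. It was 5.68-fold lower in Msx2 CKO (5.05 to 6.40), a log2 ratio of -2.42. The opposite moves of parent and copy that Rpl34 showed thus appeared here too, on a smaller scale. With its 2 named pseudogenes, Rpl3 summed to a log2 ratio of 0.47, and the pseudogenes held 2.61% of the reads in Msx2 CKO and 20.2% in Msx2 WT. Of the 2 substitutions, T786C occurs in 4 of 4 copies, whereas C57A occurs in Rpl3-ps1 and in 0 of the other 3.

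Rpl29, a large-subunit protein also described as binding heparin, was at 65.9 FPKM (1225 reads) in Msx2 CKO and 528 FPKM (6417 reads) in Msx2 WT. It lies on the plus strand of chromosome 9 from 106429454 to 106431568, with no other gene overlapping. The level was 8.02-fold lower in Msx2 CKO (7.54 to 8.53), a log2 ratio of -2.98. Its 1 named pseudogene, Rpl29-ps2, had 3 reads in Msx2 CKO and 0 in Msx2 WT, so the sum with named pseudogenes kept a log2 ratio of -2.98. The 2 copies with most reads, both under other names, differed the other way. Gm8210, on chromosome 1, had 260 reads in Msx2 CKO and 1 in Msx2 WT (169.9-fold higher, 30.2 to 6735). Gm13841, on chromosome 5, had 292 reads in Msx2 CKO and 28 in Msx2 WT (6.81-fold higher, 4.62 to 10.4).

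With every listed near-identical copy added, Rpl29 remained past 2-fold, with a log2 ratio of -2.42 and a level 5.41-fold lower in Msx2 CKO (5.14 to 5.70). A near-identical copy here matches at least 90% of bases over at least 80% of the coding sequence. The copies held 33.4% of the family's reads in Msx2 CKO and 1.31% in Msx2 WT. Split by sequence, the 3 of 12 copies with C72A had 585 reads in Msx2 CKO and 51 in Msx2 WT. Most of those reads are the ones of Gm8210 and Gm13841 given above, copies chosen after their values were seen. The 9 copies without C72A had 29 reads in Msx2 CKO and 34 in Msx2 WT. The other substitutions of Gm8210 are more widely shared, T423C by 12 of 12 copies and C300T by 10 of 12. The third copy with C72A, 4931440P22Rik, is 93.2% identical to Rpl29 and had 33 reads in Msx2 CKO and 22 in Msx2 WT.

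Rpl30, a large-subunit protein whose yeast counterpart binds its own transcript, was at 74.6 FPKM (5268 reads) in Msx2 CKO and 145.6 FPKM (6712 reads) in Msx2 WT. Its log2 ratio of -0.95 was the closest to 2-fold among genes called neither higher nor lower on the low side, as Rps4l with 0.99 was on the high side. Gm12191, on chromosome 11 from 49678710 to 49679057, was at 160.3 FPKM (1304 reads) in Msx2 CKO and 18.3 FPKM (97 reads) in Msx2 WT. It was 8.78-fold higher in Msx2 CKO (7.14 to 10.9), opposite to Rpl30. The 4 named pseudogenes of Rpl30 together had 44 reads in Msx2 CKO and 21 in Msx2 WT. With all 8 copies added the log2 ratio became -0.66. G96A, the 1 base that separates Gm12191 from Rpl30, is present in 8 of 8 copies.

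**Figure D1:**
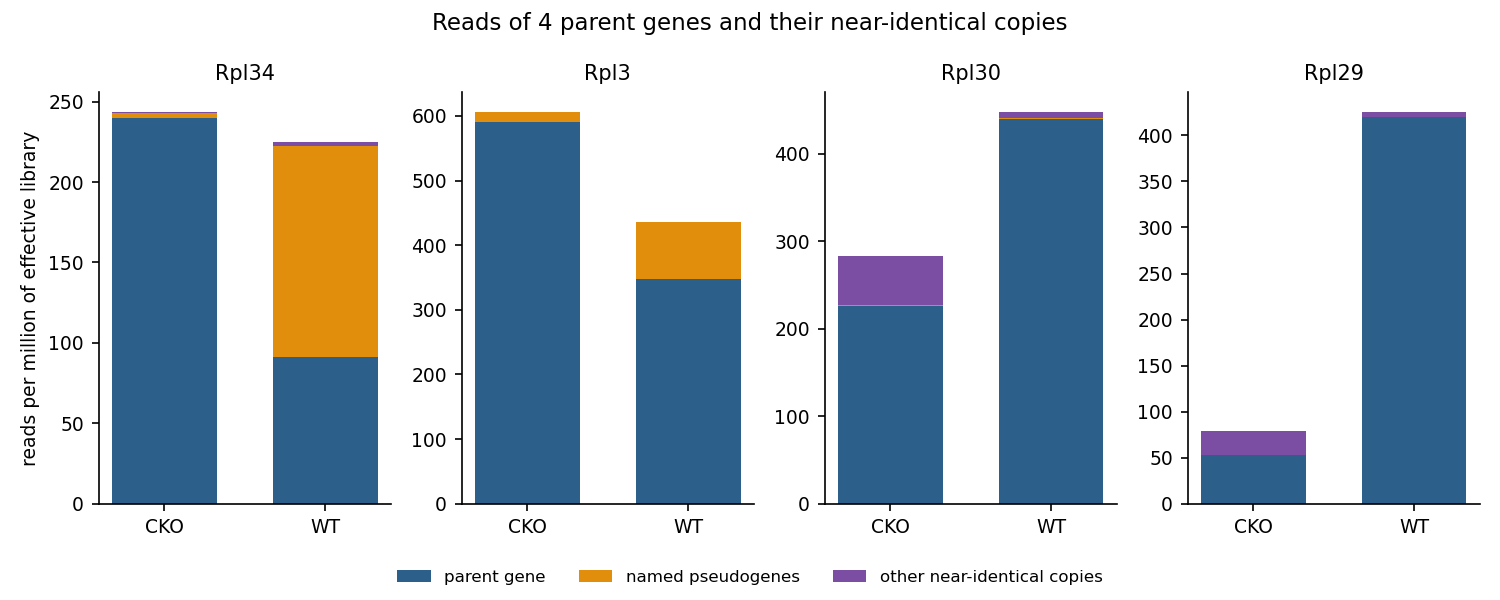
Reads of Rpl34, Rpl3, Rpl30 and Rpl29 with their near-identical copies, in RPM on the library size that the FPKM values imply, 1 library per bar with Msx2 CKO left of Msx2 WT. Stacks show the parent, the named pseudogenes and copies under other names; the Rpl34 stacks reach 243.8 in Msx2 CKO and 225.0 in Msx2 WT, whereas those of Rpl29 reach 78.7 in Msx2 CKO and 425.9 in Msx2 WT.

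**Figure D2:**
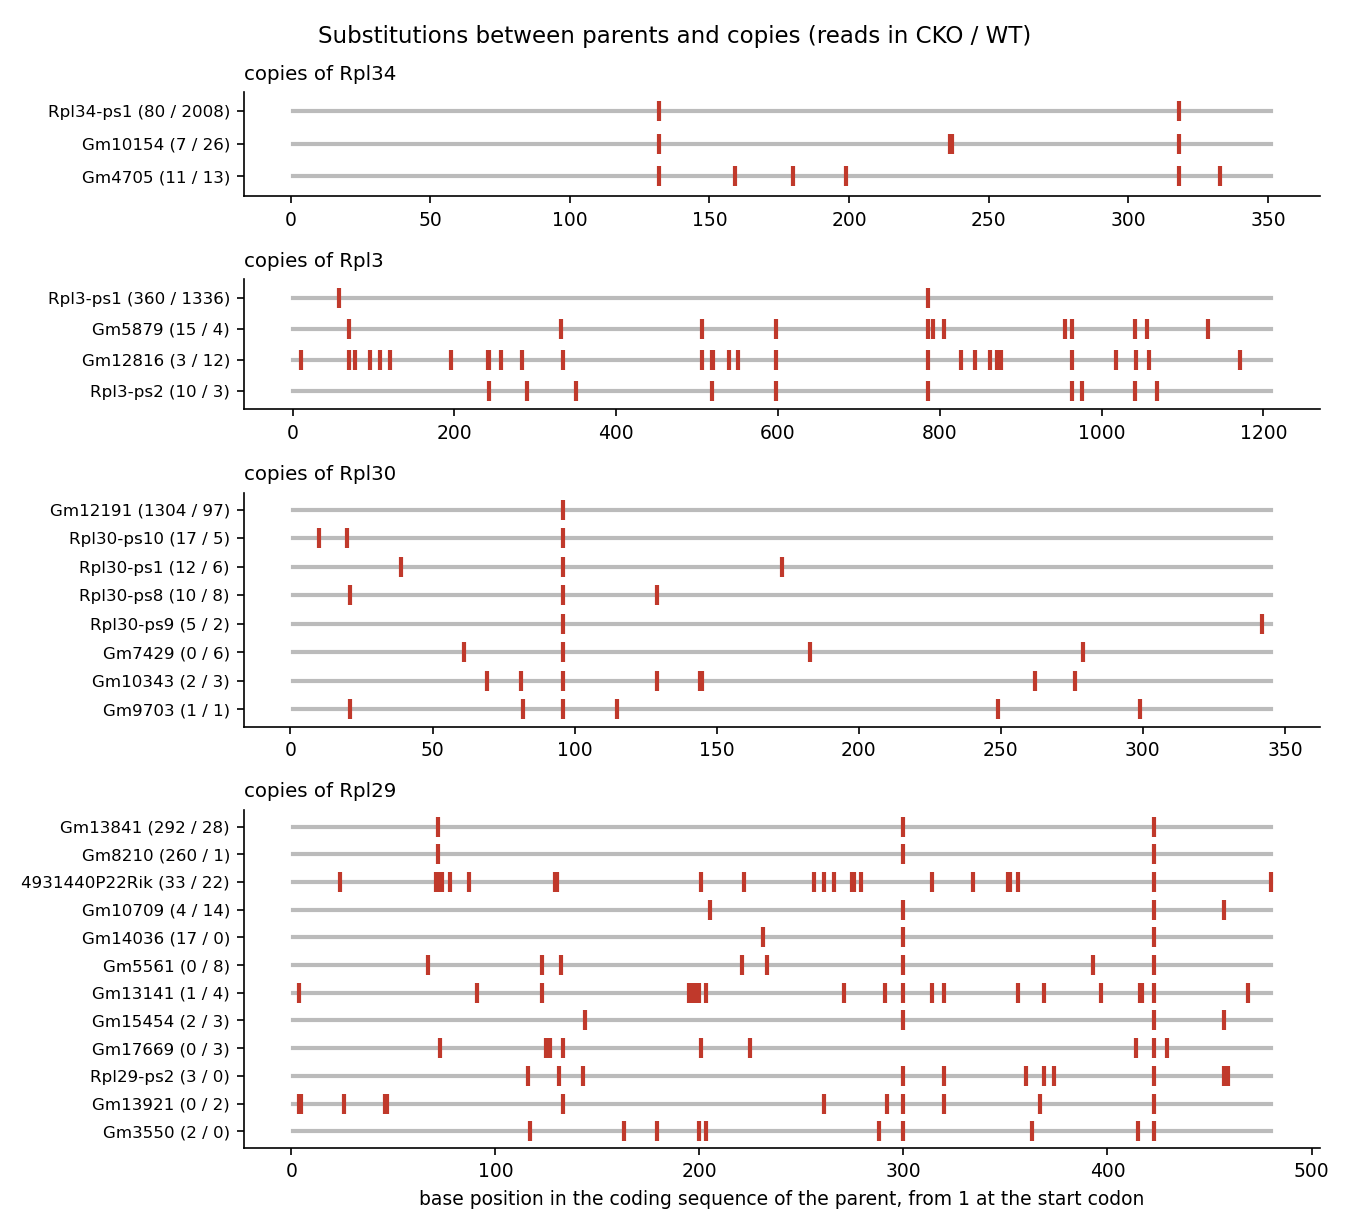
Positions of single-base substitutions in each listed near-identical copy, along the coding sequence of its parent in bases from the start codon. Copies run down by their summed reads, given as Msx2 CKO / Msx2 WT after each name; marks at 132 and 318 recur in all 3 Rpl34 copies, the mark at 96 in all 8 Rpl30 copies and the mark at 423 in all 12 Rpl29 copies.

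Across the other families, adding pseudogene reads changed little. Of the 88 genes, 45 have a listed pseudogene. The sums of these 45 had a median log2 ratio of -0.20, beside -0.19 for the same parents alone, and 1 sum (Rpl29) was past 2-fold where 2 of the parents alone were. The sums of Rpl34 and Rpl3 moved by more than 0.1 on the log2 scale, and the largest move among the others was 0.041. In 37 of the 45 families named pseudogenes held under 5% of reads in both libraries. Rpl23a was an exception of another kind: its 2 named pseudogenes held 40.1% of the reads in Msx2 CKO and 37.7% in Msx2 WT. Rpl23a itself was low for a ribosomal protein gene, at 7.78 FPKM in Msx2 CKO and 11.1 FPKM in Msx2 WT.

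Among the 45 measured main genes of the large subunit the median log2 ratio was -0.28, with 41 below 0 and 4 above. Besides Rpl29 and Rpl30, the lowest were Rpl32 (143.6 FPKM in Msx2 CKO and 229 in Msx2 WT, log2 ratio -0.67), Rpl41 and Rpl35a. Rpl41, the smallest ribosomal protein, was at 413 FPKM in Msx2 CKO and 646 FPKM in Msx2 WT, a log2 ratio of -0.64. Rpl35a, mutated in some patients with Diamond-Blackfan anaemia, was at 52.0 FPKM in Msx2 CKO and 81.3 FPKM in Msx2 WT, a log2 ratio of -0.63. Cand2 overlaps Rpl32 on the opposite strand, at 4.12 FPKM in Msx2 CKO and 6.96 FPKM in Msx2 WT. Without a stated strand setting, reads of such pairs cannot be told apart.

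The acidic stalk of the large subunit, which recruits the elongation factors, is built from Rplp0, Rplp1 and Rplp2. Rplp1 had the highest level of all ribosomal protein genes per length, at 1113 FPKM in Msx2 CKO and 1389 FPKM in Msx2 WT. Rplp0 was at 342 FPKM in Msx2 CKO and 501 in Msx2 WT, and Rplp2 was at 137 FPKM in Msx2 CKO and 192 in Msx2 WT. Their log2 ratios were -0.32 for Rplp1, -0.55 for Rplp0 and -0.48 for Rplp2, so all 3 were lower in Msx2 CKO within 2-fold. Rplp0 also has well-populated copies under other names. Gm8730 was at 303 FPKM in Msx2 CKO and 428 FPKM in Msx2 WT, and Gm9625 at 88.4 FPKM in Msx2 CKO and 128 FPKM in Msx2 WT, log2 ratios of -0.50 and -0.53 close to that of Rplp0.

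Rpl5 and Rpl11, which enter the large subunit together with a small ribosomal RNA and also bind the p53 regulator MDM2, differed from each other. Rpl5 was at 111 FPKM in Msx2 CKO and 115 FPKM in Msx2 WT, a log2 ratio of -0.05. Rpl11 was at 159.7 FPKM in Msx2 CKO and 211 FPKM in Msx2 WT, a log2 ratio of -0.40. Of the other well-expressed large-subunit genes, Rpl36 was at 606 FPKM in Msx2 CKO and 586 FPKM in Msx2 WT, Rpl17 at 557 in Msx2 CKO and 624 in Msx2 WT, and Rpl14 at 476 in Msx2 CKO and 578 in Msx2 WT. Their log2 ratios were 0.05, -0.16 and -0.28.

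Small-subunit genes had a median log2 ratio of -0.20 over 31 measured genes, with quartiles at -0.32 and -0.03. None of the 31 was called, beside 8.76% of all measured genes. Rps18 was lowest, at 78.4 FPKM in Msx2 CKO and 137.5 FPKM in Msx2 WT (1.75-fold lower, 1.68 to 1.82). Rps29, a small zinc-binding protein, was at 294 FPKM in Msx2 CKO and 503 FPKM in Msx2 WT, a log2 ratio of -0.78. Rps28 was at 119.7 FPKM in Msx2 CKO and 198.5 FPKM in Msx2 WT, a log2 ratio of -0.72. These 3 lay apart from the rest of the subunit, whose next lowest ratio was that of Rpsa, the laminin-receptor homologue, at -0.51.

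On the other side of level, Rps16, Rps15a and Rps3a1 each had a log2 ratio of 0.11. Rps12 and Rps26, the highest small-subunit genes per length, were at 960.2 and 712 FPKM in Msx2 CKO and at 974 and 859 FPKM in Msx2 WT. Rps6, the substrate of the S6 kinases, was at 236 FPKM in Msx2 CKO and 265 FPKM in Msx2 WT, a log2 ratio of -0.16. Rps27a, made as a fusion with ubiquitin, was at 141 FPKM in Msx2 CKO and 146 FPKM in Msx2 WT. The counting interval of this difference included 1.

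**Figure D3:**
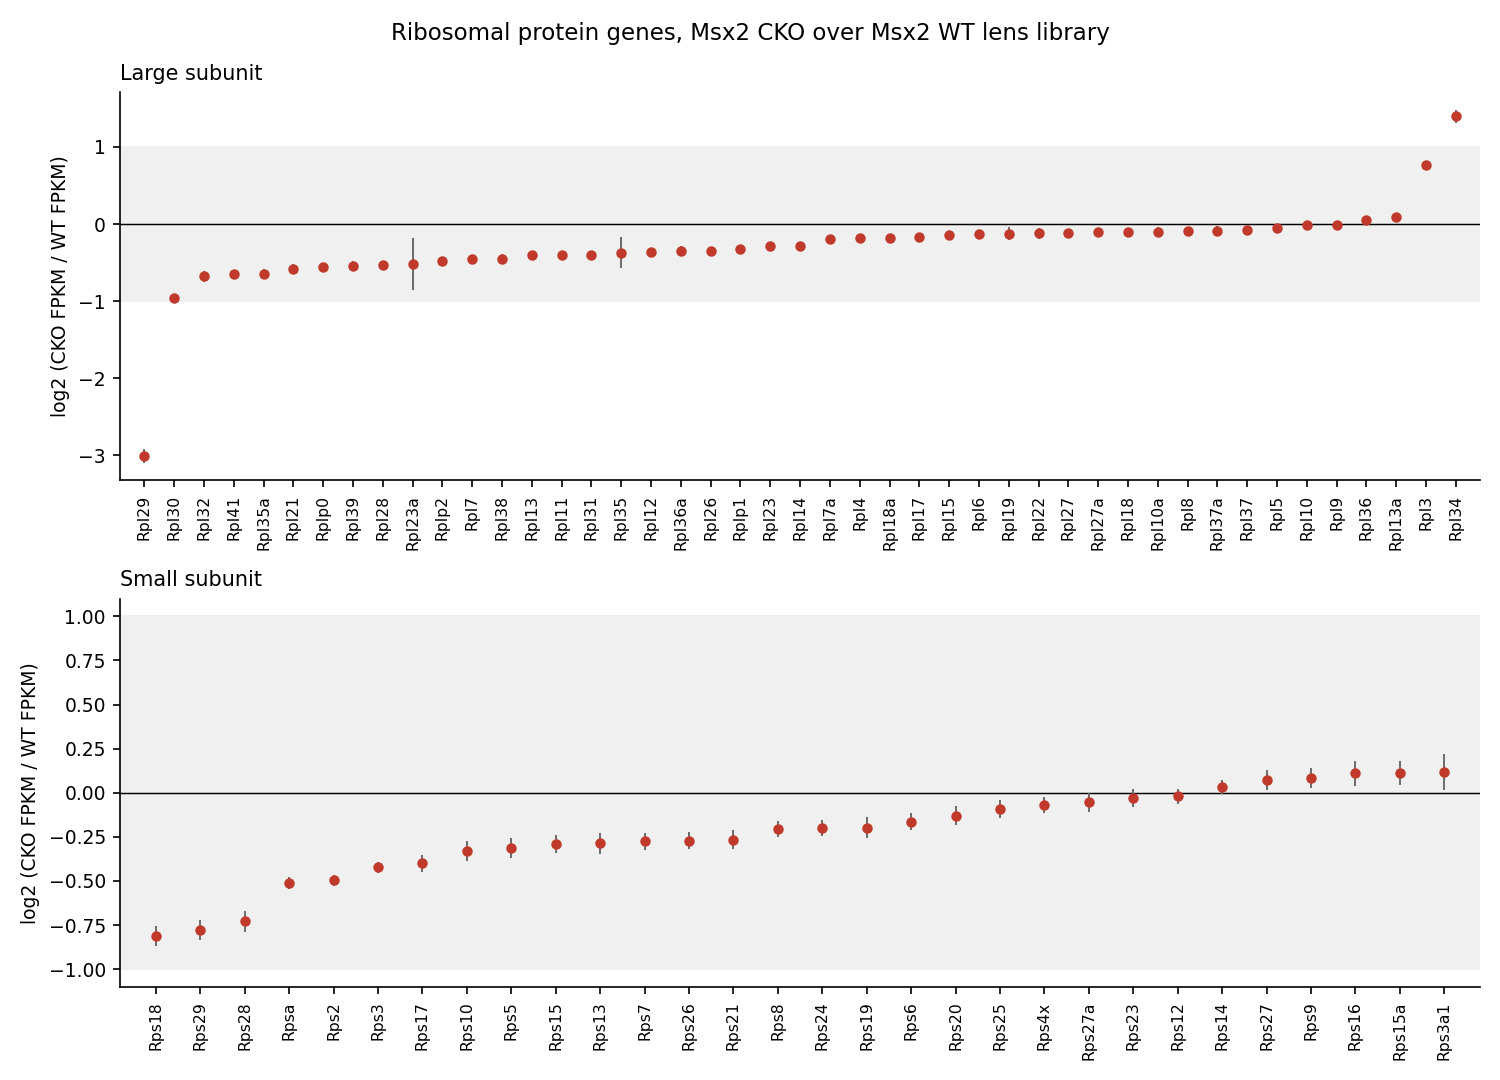
Log2 ratio of FPKM, Msx2 CKO over Msx2 WT, for 75 of the 76 measured main ribosomal protein genes, large subunit above and small subunit below, 1 point per gene with its 95% counting interval as a line. The shaded band marks 2-fold in either direction; Rpl29 and Rpl34 lie outside it and most others lie a little below 0.

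On the deposited scaling, the counting interval of the fold lay below 1 for 62 of the 86 measured genes, above 1 for 12, and spanned 1 for 12. Another scaling moves every fold and so changes this split. Counting error is only part of the error, and what separate animals would show was not measured. Highly expressed genes as a whole were also mostly lower in Msx2 CKO. Of all 478 genes with a mean of 50 FPKM or more, ribosomal protein genes included, 78.7% had a plain log2 ratio below 0. Their median was -0.29. Of the 73 main ribosomal protein genes at that level, 86.3% were below 0, with a median of -0.20. The interquartile range of plain log2 ratios was 0.33 for 76 main ribosomal protein genes and 0.58 for all measured genes.

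As a share of all reads the 88 genes took 3.47% in Msx2 CKO (3.46 to 3.47, exact binomial interval) and 2.24% in Msx2 WT (2.23 to 2.25). Outside the crystallins the shares lay side by side, 5.78% in Msx2 CKO (5.77 to 5.80) and 5.84% in Msx2 WT (5.82 to 5.85). The 115 named pseudogenes took 0.0298% of reads in Msx2 CKO (5112 reads) and 0.0322% in Msx2 WT (6698 reads). Rpl34-ps1 and Rpl3-ps1, the pseudogenes with the most reads, set that order: without them, a choice made after their values were seen, the shares were 0.0272% in Msx2 CKO (4672 reads) and 0.0161% in Msx2 WT (3354 reads).

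Paralogs and retrogenes, many of them tissue-restricted relatives of a main gene, had a median log2 ratio of 0.04 over the 10 measured. Rps4l, an autosomal relative of the X-linked Rps4x, was at 14.9 FPKM (329 reads) in Msx2 CKO and 7.02 FPKM (101 reads) in Msx2 WT, 2.13-fold higher by the plain ratio (1.70 to 2.69). Adding 1 FPKM brought its log2 ratio to 0.99, just inside 2-fold. Rps4x itself was at 244 FPKM in Msx2 CKO and 256 FPKM in Msx2 WT. Rps3a2 and Rps3a3, intronless relatives of Rps3a1, were at 77.5 and 186 FPKM in Msx2 CKO and at 63.7 and 175 FPKM in Msx2 WT. Rps3a1 was at 93.9 FPKM in Msx2 CKO and 86.7 FPKM in Msx2 WT, so a retrogene held more FPKM than the parent in both libraries. Rps27l, a relative of Rps27 known as a p53 target, was nearly level at 38.9 FPKM in Msx2 CKO and 38.6 FPKM in Msx2 WT, and Rps27rt was at 25.8 in Msx2 CKO and 24.1 in Msx2 WT. Rpl22l1, Rpl37rt and Rpl7l1 had log2 ratios of 0.03, 0.05 and -0.10. Rpl36al had -0.38 and Rpl6l, on 29 reads in Msx2 CKO and 35 in Msx2 WT, -0.58. Rpl3l, the striated-muscle relative of Rpl3, had 1 read in each library.

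The 4 X-linked main genes are given beside the Xist and Eif2s3y values, whose part in them was not tested. Rpl10 was at 287.5 FPKM in Msx2 CKO and 291.0 FPKM in Msx2 WT. Rpl36a was at 95.0 FPKM in Msx2 CKO and 121 FPKM in Msx2 WT. Rpl39 was at 119 FPKM in Msx2 CKO and 174 FPKM in Msx2 WT. With Rps4x, they had a median log2 ratio of -0.21, and none was called, beside 8.76% of all measured genes.

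Some main genes had few reads. Rpl24, altered in the belly spot and tail mouse, was not measured, with 5 reads in each library (0.208 FPKM in Msx2 CKO and 0.318 FPKM in Msx2 WT). All of its coding 50-base stretches (100%) also occur in other genes, 8 of them in GENCODE M21. Rpl10 is at 100% as well, but had 13794 reads in Msx2 CKO and 9121 in Msx2 WT. Rpl24 also overlaps an exon of Gm28037 on the same strand. The part of shared sequence or of this overlap in the count of Rpl24 was not tested. Rpl35 was at 15.2 FPKM in Msx2 CKO and 19.7 FPKM in Msx2 WT, with 91.6% of its 50-base stretches found elsewhere. For the 77 main genes the median was 91.3%, with 42 genes over 90% and 3 under 10%. For correlations with level, reads were divided by the length of each gene's principal GENCODE M21 transcript instead of the table's gene length. Across genes, that percentage had a Spearman correlation of -0.074 with level in Msx2 CKO and -0.049 with level in Msx2 WT. With the log2 ratio it was -0.028, as a description of genes that share libraries. The levels of the main genes ranked alike in the libraries (Spearman 0.857 across genes, with levels per length of the principal transcript).

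**Figure D4:**
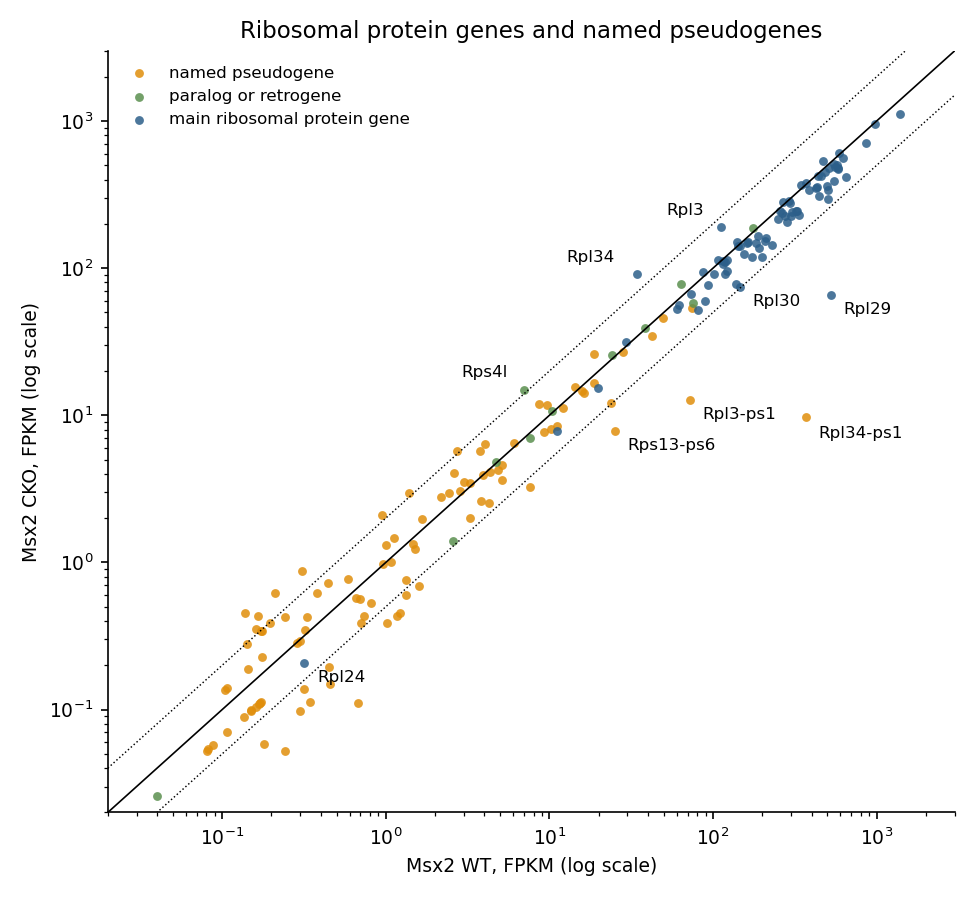
FPKM of ribosomal protein genes and named pseudogenes, Msx2 CKO on the vertical axis and Msx2 WT on the horizontal axis, both on log scales, 1 point per gene. The solid line marks equal levels and the dotted lines 2-fold; genes at 0 in either library (5 pseudogenes in Msx2 CKO and 12 in Msx2 WT) are not drawn. Rpl34-ps1 and Rpl29 lie farthest below the line at high levels and Rpl34 above it.

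Most named pseudogenes were not measured. The 67 that were not measured had 2 to 21 reads over both libraries, with a median of 4. Of the 115, 100 are typed in the table as processed pseudogenes and 12 as protein-coding, with 2 transcribed processed pseudogenes and 1 pseudogene. The median log2 ratio of the 48 measured was -0.09, with 29 below 0 and 19 above. All pseudogene rows of the table, of any gene, had 17 higher and 20 lower over 309 measured, with a median of -0.07. Among all measured genes 5.83% were higher and 2.93% lower. On the deposited scaling, counting intervals spanned 1 for 36 of the 48 named pseudogenes, lay below 1 for 8 and above 1 for 4.

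Besides Rpl34-ps1 and Rpl3-ps1, the pseudogenes called lower were Rps13-ps6 and Rpl39-ps. Rps13-ps6 was at 7.80 FPKM (78 reads) in Msx2 CKO and 25.3 FPKM (165 reads) in Msx2 WT, 3.24-fold lower (2.46 to 4.30). It lies on chromosome 2 from 143855649 to 143856076, within an intron of Bfsp1 and on the opposite strand. It was not among the near-identical copies as defined above, by identity and share of the coding sequence. Bfsp1, which encodes the lens beaded-filament protein filensin, was at 1702 FPKM in Msx2 CKO and 4761 FPKM in Msx2 WT, 2.80-fold lower (2.77 to 2.82). Whether reads of the Bfsp1 transcript entered the count of Rps13-ps6 was not tested. Rpl39-ps, on chromosome 15, was at 3.25 FPKM (27 reads) in Msx2 CKO and 7.56 FPKM (41 reads) in Msx2 WT, a log2 ratio of -1.01 at the edge of the size rule. The nearest pseudogenes inside it were Rps15a-ps7 at -0.92 and Rps18-ps3 at 0.85.

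The pseudogenes with the highest levels lay within 2-fold, apart from Rpl34-ps1, Rpl3-ps1 and Rps13-ps6. Rpl38-ps2, whose coding sequence is identical to that of Rpl38, was the most abundant measured pseudogene in Msx2 CKO, at 53.8 FPKM against 74.1 FPKM in Msx2 WT. Its log2 ratio of -0.45 equals that of Rpl38 to 2 decimals. Rpl31-ps8, also identical to its parent, was at 46.1 FPKM in Msx2 CKO and 49.7 FPKM in Msx2 WT (log2 ratio -0.11), and Rpl31 had -0.40. Rpl28-ps1 was at 34.8 FPKM in Msx2 CKO and 42.2 FPKM in Msx2 WT (-0.27), and Rpl28 had -0.53. Rps16-ps2 was at 26.2 FPKM in Msx2 CKO and 18.7 FPKM in Msx2 WT (0.46), and Rps16 had 0.11. Rps2-ps10 lies in an intron of Pde6a on the opposite strand. It was at 3.55 FPKM in Msx2 CKO and 2.99 FPKM in Msx2 WT, whereas the photoreceptor gene Pde6a was at 36.3 FPKM in Msx2 CKO and 1.19 FPKM in Msx2 WT.

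Sequence identity to the parent was compared between measured and unmeasured copies. Of the 115 named pseudogenes, 105 were near-identical copies of a main gene or paralog. The 47 measured ones had a median identity of 99.4%, and 11 of them were identical over the coding sequence. The 58 that were not measured had a median of 98.2%, with 1 identical. The longest stretch without a mismatch had a median of 281 bases in the measured copies and 150.5 bases in the others. A further 222 listed near-identical copies carry other names, with 24069 reads in Msx2 CKO and 19395 in Msx2 WT in all. Of these, 72 were measured, with 5 higher and 4 lower, beside 5.83% and 2.93% of all measured genes. Among the higher were Gm8210, Gm13841 and Gm12191. Among the lower was Gm43247, a copy of Rpl21 with 979 reads in Msx2 CKO and 1402 in Msx2 WT. GENCODE M21 holds 661 more such copies that are not listed in the table.

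Medians of the other translation lists ran from that of the non-ribosomal TOP messages, near the ribosomal protein genes, to that of the mitochondrial ribosomal proteins, near all genes. None of 75 measured mitochondrial ribosomal proteins was called, where 8.76% of all measured genes were, and their median log2 ratio was 0.01. The highest was Mrpl40 at 0.56 and the lowest Mrps26 at -0.60. None of 83 ribosome biogenesis factors was called (median -0.02), from Ebna1bp2 at -0.52 to Wdr43 at 0.76, both nucleolar proteins of pre-ribosome assembly. None of 14 genes of the RNA polymerase I machinery was called (median -0.02), from Polr1a, its largest subunit, at -0.40 to Znrd1 at 0.40.

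Among 52 measured initiation factors 0 were higher and 2 lower in Msx2 CKO, beside 5.83% and 2.93% of all measured genes. Their median was -0.11. The 2 lower were the Y-linked Eif2s3y, with the reads given above, and Eif5b, which joins the subunits. The highest initiation gene was Eif4ebp1, an inhibitor of the cap-binding protein, at 17.4 FPKM in Msx2 CKO and 8.21 FPKM in Msx2 WT, 2.12-fold higher by the plain ratio (1.73 to 2.62) and just inside the rule after adding 1 FPKM. Of 16 elongation and termination factors 1 was called, beside 8.76% of all measured genes, and their median was -0.09. Eef1a2, the form of the elongation factor found in neurons and muscle, was at 16.0 FPKM (780 reads) in Msx2 CKO and 4.49 FPKM (143 reads) in Msx2 WT, 3.56-fold higher (2.98 to 4.29). The lowest was Hbs1l, a ribosome rescue factor, at -0.54.

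Fau and Gnb2l1, ribosomal proteins outside the naming rule, lay within 2-fold. Fau was at 229 FPKM in Msx2 CKO and 238 FPKM in Msx2 WT, and Gnb2l1, the table's symbol for Rack1, was at 67.5 FPKM in Msx2 CKO and 92.0 FPKM in Msx2 WT. Messages of other genes that share the terminal oligopyrimidine (TOP) tract of ribosomal protein messages had a median log2 ratio of -0.15 (25 measured). Of these, 20 lay below 0 and 0 were called, beside 8.76% of all measured genes. They ranged from Pabpc1, the poly(A)-binding protein, at -0.56 (161 FPKM in Msx2 CKO and 237 FPKM in Msx2 WT) to Eif3e at 0.23.

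**Figure D5:**
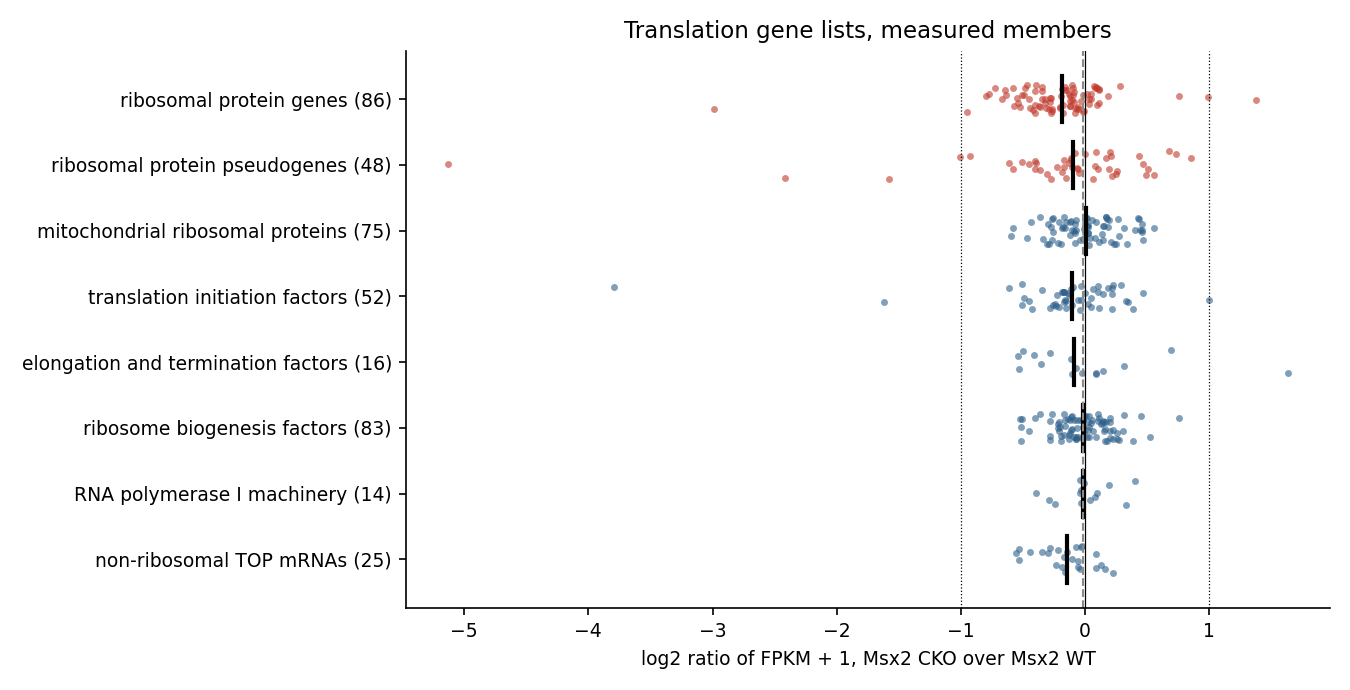
Log2 ratio of FPKM + 1, Msx2 CKO over Msx2 WT, for measured members of the ribosomal protein lists and of 6 further translation lists, 1 point per gene, with the number measured in brackets. Black bars mark list medians, the dashed line the median of all measured genes (-0.02) and dotted lines 2-fold; the bars lie between -0.18 for ribosomal protein genes and 0.01 for mitochondrial ribosomal proteins.

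The TOP tract, a cytosine and a run of pyrimidines at the very start of the message, is the known feature through which mTOR signalling governs the translation of ribosomal protein messages. It was sought on the sense strand of RefSeq promoter windows (GRCm38.p6) as a C followed by at least 4 bases that are each C or T. Windows were held for 57 of the 77 main genes. The run began at the annotated start in 13 of them (22.8%) and within 10 bases of it in 34 (59.6%). Among all 27025 genes with a window the shares were 3.01% at the start and 34.4% within 10 bases. The 18 non-ribosomal TOP messages with a window had higher shares by this rule, 33.3% (6 genes) at the start and 66.7% within 10 bases. With at least 7 pyrimidines after the C, within 10 bases, the order was the other way. The shares were then 40.4% of ribosomal protein genes, 27.8% of TOP messages and 9.43% of all genes. By the first rule, ribosome biogenesis factors had 2.67% at the start and 33.3% within 10 bases. Windows of 28 bases from 4 genes with such a run show the feature, with the run of pyrimidines in capitals. Their annotated start is base 13.
Rps6, chr4:86857352-86857379, minus strand: cggaagtcgggCCTCTTTTTCgtgacgc
Rpl38, chr11:114668568-114668595, plus strand: ggaagcctcgttCTTTCCCCgttctctt
Rps15a, chr7:118116132-118116159, minus strand: tctttctgccatCTTCCCTCgccggtga
Rpl28, chr7:4792953-4792980, plus strand: cctctcgtgtCTCTCTTTCCgtctccgg
These 4 genes, printed as examples, had log2 ratios of -0.16, -0.45, 0.11 and -0.53 in the order printed. They lay on both sides of the ribosomal protein median, and ratios of genes with and without a run were not compared. A match to these letters is a description of the window and not a measured start of transcription.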

How the data were processed

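The members and lists were chosen with earlier results of these data known. The deposited table gives 1 value per gene and library, with gene length, coordinates and type. The authors deposited FPKM, a unit inferred from the values: each value times gene length is a whole multiple of 1 step per library (100% within 0.001 of a read). Taking that step as 1 read, reads were recovered, and the values imply libraries 1.36 times (Msx2 CKO) and 0.735 times (Msx2 WT) the recovered totals. DESeq2 1.10.1, HTSeq 0.6.0 and STAR 2.5.1b appear, with no role, in the submitters' processing notes. For build, annotation, read length, strandedness and reads that match several genes, settings were not given in the sources used here. Of the 203 member identifiers, 202 were found in GENCODE M21 (GRCm38), all 202 on the same chromosome and overlapping, so coordinates are given on GRCm38.

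Log2 ratios used a pseudocount of 1 FPKM, which understates the change of genes at low levels. Fold intervals are exact conditional binomial (Clopper-Pearson) at 95%, and the recovery and calls were tested on simulated data. Parents and copies were summed as reads over the parent's length. Coding sequences of GENCODE M21 were compared with all its transcripts by BLAST 2.17.0, and substitutions were read from Biopython 1.88 alignments. Analyses used Python 3.11.15, pandas 2.3.3, SciPy 1.17.1 and matplotlib 3.10.9.

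Genes were named by rule: those past 2-fold, the 8 highest, 8 lowest and 8 most abundant in Msx2 WT, the 11 paralogs, measured pseudogenes or those with 50 reads or more and their parents, the extremes of each other list, and Msx2. A gene among the 8 highest is not reported here. Rpl24, Rpl35, Rpl5, Rpl11, the stalk genes, the X-linked genes, Rpsa, Eif5b, Fau, Gnb2l1, host genes and copies under other names were chosen after their values were seen, or for their role. Alternatives were a pseudocount of 0.1, no filter, a minimum of 10 reads, other scalings, and, added after seeing the data, other treatments of copies and paralogs.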

Additional observations from a re-analysis of the deposited data

How the results depend on the processing

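Scaling was the choice that mattered most. Under library totals the median log2 ratio of all measured genes moved up by 0.70, and the medians became 0.69 for ribosomal protein genes, 0.67 for pseudogenes, 0.69 for parents summed with pseudogenes and 0.69 for the other translation lists pooled. The counts past 2-fold became 6, 11 and 5 for the first 3, and 2307 for all measured genes, of which 96.8% were higher (66.6% as deposited). Under totals without crystallins, which moved the all-gene median by 0.22, the same medians were 0.064, 0.0905, 0.051 and 0.18, with 4 ribosomal protein genes and 1724 genes in all past 2-fold (80.1% higher). After adding 1 FPKM, ribosomal protein genes lay at -0.17 relative to all genes as deposited, at 0.0077 under totals and at -0.14 without crystallins. Plain ratios, without that addition, had medians of -0.18 for ribosomal protein genes and -0.02 for all measured genes with reads in both libraries. Scaling moves every plain ratio by the same amount, so for these genes that gap is the same under any scaling. Of the 115 genes and pseudogenes named by rule, 66, 26 and 1 had the other sign under totals, totals without crystallins and median-of-ratios factors. Rpl39-ps was within 2-fold under the first 2, at -0.27 and -0.88, and Rps13-ps6 under totals, at -0.75. With a pseudocount of 0.1, 8 pseudogenes were past 2-fold, 3 higher and 5 lower, against 0 higher and 4 lower as deposited, 9 and 2 under totals and 3 and 3 without crystallins. Adding pseudogene reads, or those of all near-identical copies, to the parents left 1 ribosomal protein gene past 2-fold in each case. The last 2 settings were chosen after seeing the data. No filter, a minimum of 10 reads and median-of-ratios factors kept every count within 1.5 times, and no called value changed sign under any setting. No paired analysis was possible because each genotype has 1 library. Depth limits the pseudogenes most: the 67 of 115 that were not measured had at most 21 reads over both libraries. Some measured ones had as few, such as Rps15a-ps5 with 7 reads in Msx2 CKO and 8 in Msx2 WT.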
